A study of Mus musculus with 4 samples.

Results

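Homeobox genes encode transcription factors that bind DNA through the homeodomain, and 49 of them, named one by one in a list, were followed in RNA sequencing counts of cultured mouse cortical astrocytes. The list holds forebrain patterning genes and the TALE, POU, CUT and zinc finger homeobox classes. All 49 were found among the 53379 genes of the table by matching its Ensembl identifiers to GENCODE symbols. The list names genes by family and uses no threshold on their values. The cultures came from cortex of C57BL/6 mice at postnatal day 0 and were taken at day 14 in vitro, in 2 groups of 2 libraries: wild type, and Npas3-/-, in which the bHLH-PAS transcription factor gene Npas3 is labelled as lacking on both alleles. All cultures were grown in serum-containing medium and shaken daily to remove neurons and other cells that were not astrocytes. The sources used here do not say which exons were deleted or whether libraries of a genotype came from separate animals, so p-values measure only the spread between these libraries, which may be technical.

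Homeodomain proteins divide the developing neural tube into regions. In the forebrain, Emx2, Lhx2 and Pax6 act in the dorsal part from which the cortex arises, Dlx genes in the ventral part from which inhibitory neurons arise, and Nkx genes in ventral domains along the neural tube. Glia retain part of the regional code of the progenitors they come from, and TALE proteins such as Pbx and Meis bind DNA together with other homeodomain proteins.

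The libraries held between 82965565 and 86932708 counts, and 47 of the 49 genes passed the filter on low counts, as did 18838 genes of the table. Levels are CPM, counts scaled to a common library size. Log2 fold changes above 0 are higher in Npas3-/-. Npas3 was at 57.8 and 93.4 CPM in wild type and at 24.8 and 18.0 CPM in Npas3-/-, and fell by edgeR with a log2 fold change of -1.82 (SE 0.33, edgeR adjusted p = 0.0181). It was -0.57 (SE 0.22, edgeR adjusted p = 0.154) with the GC and length correction described next, and reads over the whole gene do not show whether a deleted part was lost. The libraries stood apart in base composition: the count-weighted transcript GC content was 51.5% and 50.2% in wild type and 53.2% and 53.6% in Npas3-/-. Mitochondrial mRNA took 1.68% and 3.1% of wild-type counts and 0.578% and 0.365% of Npas3-/- counts, and 22902 and 23761 genes against 20652 and 21337 had a count. The part of these differences in the homeobox values was not tested. Each result is therefore given by 2 tests: edgeR's quasi-likelihood test, Benjamini-Hochberg adjusted over all 18838 genes, and the same test after a per-library trend on transcript GC content and length was removed ("corrected" below). Without Npas3-/- replicate 2 no gene of the table was past an adjusted p of 0.05 by edgeR (smallest adjusted p = 0.0798), although 5728 had an unadjusted p under that value. The same held for the corrected test without either Npas3-/- library (smallest adjusted p = 0.104 and 0.0659, with 4469 and 3683 genes at an unadjusted p under 0.05). Every call below thus needs Npas3-/- replicate 2, and every corrected call needs both Npas3-/- libraries.

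The members called in the same direction by both tests were Nkx6-2, Hopx and Pou3f1, which rose, and Dlx2 and Pou3f4, which fell. These are 3 and 2 of the 47 tested members, where 462 and 541 of all 18838 genes rose and fell in both tests. Promoter sequence is shown for the 3 of them with a RefSeq start within 10 bases of the GENCODE gene start. These 5 genes were chosen because they were called both with and without the correction. Some calls depend on its form. Pou3f1 was not called with the trend fitted over genes at 1 CPM or more. Neither Pou3f1 nor Pou3f4 was called with the correction and the replicate number as a block. The windows are the 250 bases before the start, from RefSeq on GRCm38.p6, read 5′ to 3′ on the gene's strand. Capitals mark ACGTG or GCGTG on either strand, the cores of sites that bHLH-PAS dimers bind in general. The Dlx2 window is chr2:71546755-71547004, the Hopx window chr5:77115124-77115373 and the Nkx6-2 window chr7:139582798-139583047, all on the minus strand.
Dlx2: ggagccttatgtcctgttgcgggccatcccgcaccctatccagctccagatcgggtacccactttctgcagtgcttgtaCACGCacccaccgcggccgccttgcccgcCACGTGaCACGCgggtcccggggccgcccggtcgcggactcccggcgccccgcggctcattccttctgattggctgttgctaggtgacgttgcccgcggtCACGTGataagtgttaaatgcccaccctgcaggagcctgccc
Hopx: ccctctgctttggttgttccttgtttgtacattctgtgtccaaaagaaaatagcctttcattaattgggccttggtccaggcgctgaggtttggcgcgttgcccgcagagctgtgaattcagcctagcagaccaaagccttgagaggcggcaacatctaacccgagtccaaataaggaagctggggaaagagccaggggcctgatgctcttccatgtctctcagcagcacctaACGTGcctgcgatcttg
Nkx6-2: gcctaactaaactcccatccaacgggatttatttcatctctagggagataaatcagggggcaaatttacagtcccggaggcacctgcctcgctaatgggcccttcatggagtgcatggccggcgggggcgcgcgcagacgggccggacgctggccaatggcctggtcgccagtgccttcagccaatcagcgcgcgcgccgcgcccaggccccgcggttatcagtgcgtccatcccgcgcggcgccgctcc
The Dlx2 window held 6 matches, 4 of ACGTG and 2 of GCGTG, with both CACGTG stretches read once on each strand. The Hopx window shown had 1 match of ACGTG and the Nkx6-2 window had 0 of either core. A second RefSeq window of Hopx, chr5:77095268-77095517, is not shown and held 3 matches of ACGTG and 1 of GCGTG. Over all members, 38 matched the promoter table by symbol, with 56 windows. Of these windows 51.8% held ACGTG or GCGTG, against 38.6% of all 32851 windows of that length. The member windows also had more GC (median 59.6% against 52.4%) and more CpG (median 15 against 6), and both cores contain a CpG. The homeodomain core TAATTA was in 7.14% of member windows and in 4.84% of all, and the E-box CANNTG, which overlaps ACGTG in CACGTG, was in 41.1% and 66.2%. A match describes these letters only, and no binding was measured.

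Of the 47 tested homeobox genes, 4 rose and 12 fell by edgeR, and 31 were not past the threshold. Nkx6-2, Hopx, Pbx2 and Pou3f1 rose, which is 8.51% of the tested members, where 11.6% of all tested genes rose. Dlx2, Pax6, Prrx1, Six4, Meis2, Pou2f1, Pou3f2, Pou3f4, Zeb1, Zeb2, Zfhx3 and Zfhx4 fell, 25.5% of the members, where 21.5% of all genes fell. Both shares lay near those of the whole table. The median log2 fold change was -0.28 over the members and -0.07 over all tested genes. After the correction 3 members rose (Hopx, Nkx6-2 and Pou3f1, 6.38%, against 5.71% of all genes) and 3 fell (Dlx2, Lhx2 and Pou3f4, 6.38%, against 3.08%). The correction moved the median of all genes to 0.089 and that of the members to 0.034. It also changed the balance of calls over the whole table, of which 35.1% were rises by edgeR (2188 higher, 4044 lower), 65.0% after the correction (1076 and 580) and 54.4% with its trend fitted at 1 CPM or more (857 and 717). Without regard to a test, the genotypes did not overlap in 13 members higher in Npas3-/- (27.7%, against 35.7% of all genes) and in 26 lower (55.3%, against 40.1%).

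**Figure D1:**
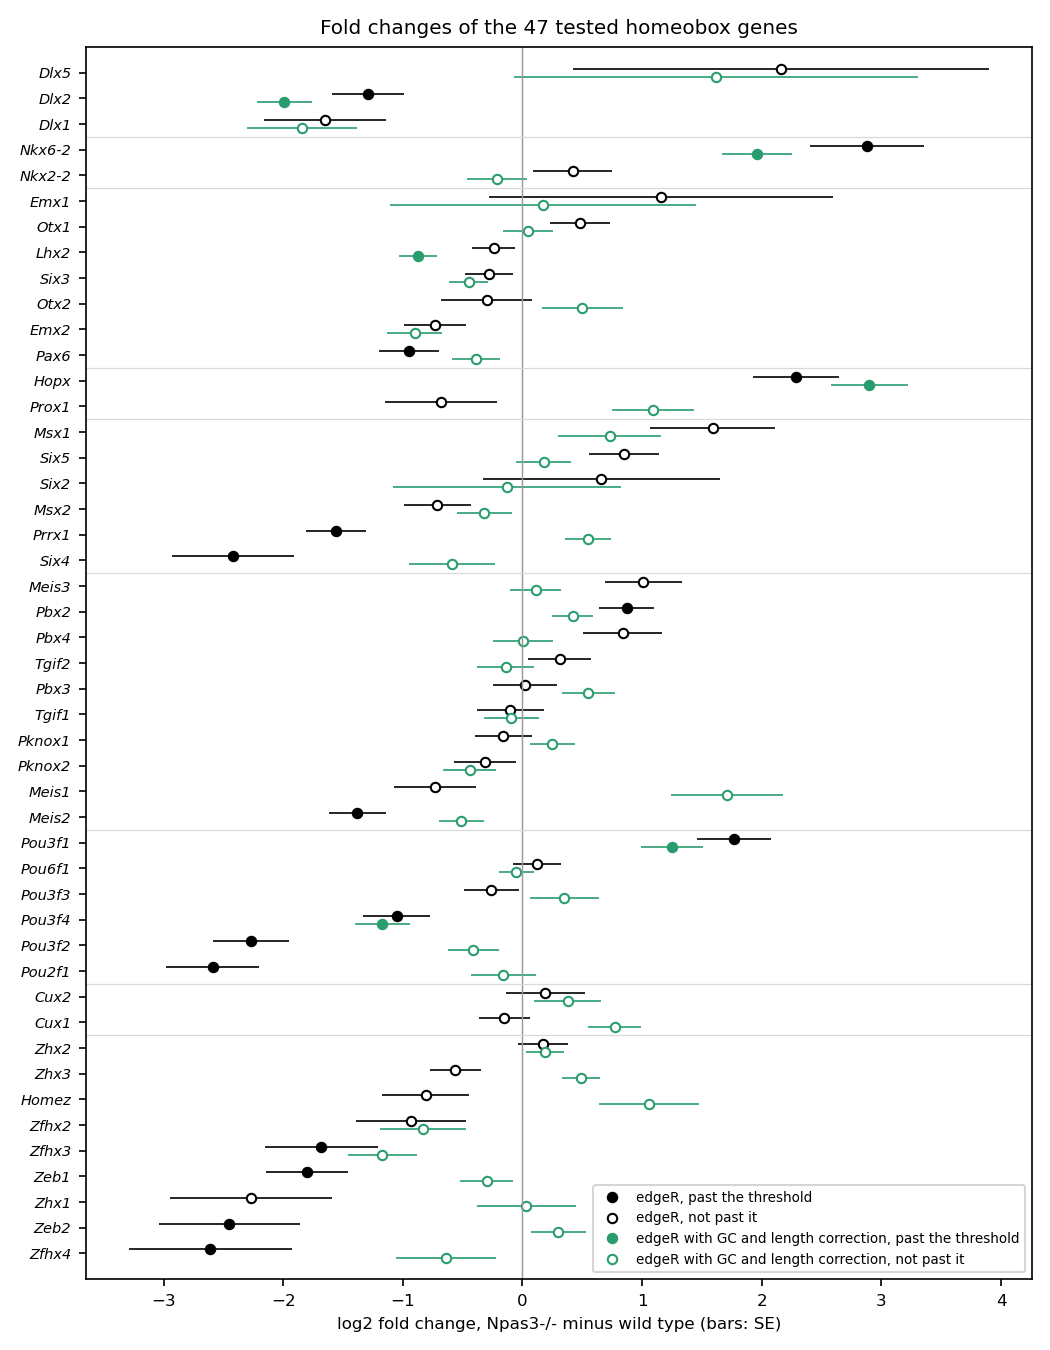
Log2 fold change of each tested homeobox gene (x axis, Npas3-/- minus wild type, bars are 1 SE), by edgeR in black and with the GC and length correction in green; filled points are past an adjusted p of 0.05 and lines divide the role groups. Filled points of both colours are seen for Dlx2, Nkx6-2, Hopx, Pou3f1 and Pou3f4, and the falls of the zinc finger genes at the bottom are filled in black only.

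The members that fell were GC-poor and long. Their transcripts had a median GC content of 45.8% (40.6% to 58.3%) and a median length of 6164 bases, against 59.7% and 2184 bases for the 4 that rose and 53.4% and 3007 bases for the other 31. Across the 47 members, which share the same 4 libraries, the log2 fold change had a Spearman's rho of 0.70 with transcript GC content and of -0.68 with length. After the correction the values were -0.086 and -0.11. Over the 18817 tested genes with known GC content they were 0.67 and -0.38 before the correction and 0.034 and -0.047 after it. The ratio between wild-type libraries, replicate 2 over replicate 1, had a rho of -0.54 with GC content over the 47 members. The ratio between the Npas3-/- libraries had a rho of 0.40, so that libraries of one genotype also differed along this gradient. Dlx2 was the only member among the 12 that fell with a GC content above 53.0%, at 58.3%, and Hopx the only 1 of the 4 that rose below 55.6%, at 46.4%. A true difference that runs along GC content or length would be removed by the correction together with a technical one, and these cannot be told apart here.

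**Figure D2:**
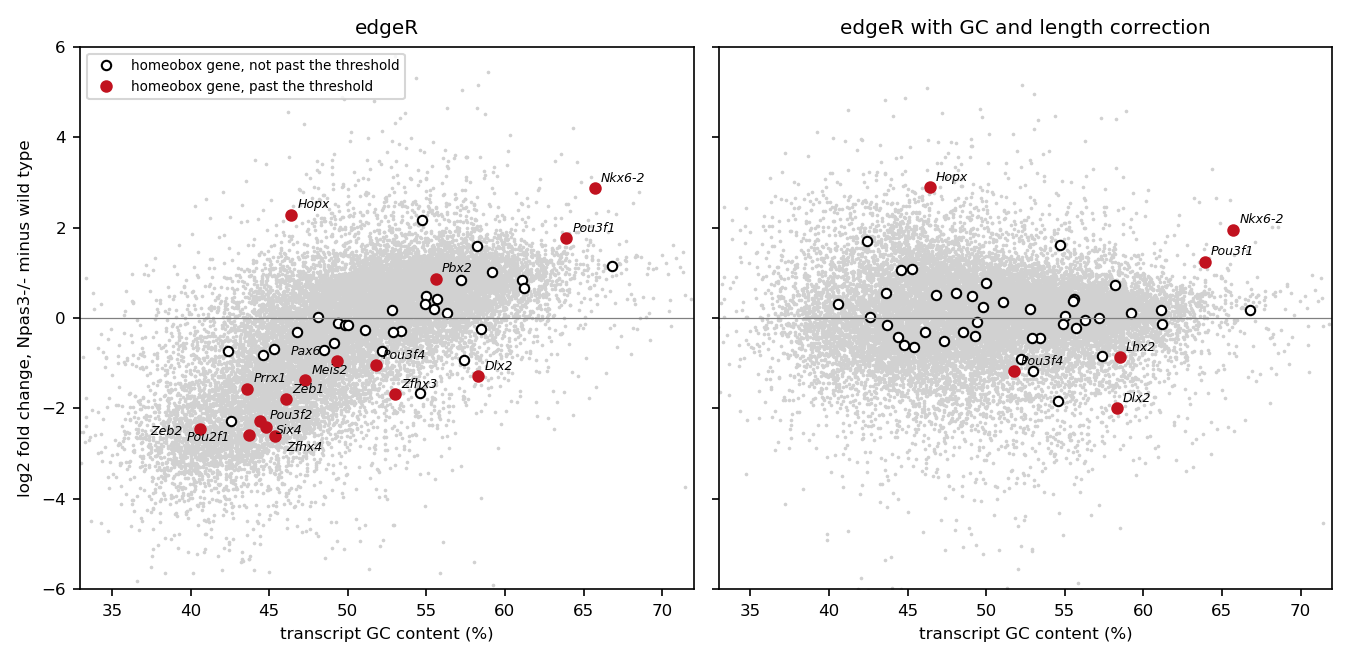
Log2 fold change (y axis, Npas3-/- minus wild type) against transcript GC content (x axis, %) for all tested genes (grey) and homeobox genes (circles, red when past an adjusted p of 0.05), by edgeR at left and with the correction at right. At left the circles climb from Zeb2 at 40.6% GC to Nkx6-2 at 65.7%, with Hopx above and Dlx2 below circles of like GC content, and at right the slope is gone and 6 circles are red. Genes beyond a log2 fold change of 6 in either direction are not drawn.

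Per kilobase of exon, counting all annotated exons of a gene, Pou3f3 and Lhx2 led in wild type with 36.1 and 32.8 CPM per kb. That length can exceed the longest protein-coding transcript, with 4393 against 2840 bases for Lhx2 and 12043 against 3718 for Meis2. The order of genes thus depends on the annotation. Zhx2 and Zhx3 (12 each), Six3 (10.4), Hopx (10.2), Pbx2 (9.27) and Emx2 (9.14) followed. In Npas3-/- the order was headed by Nkx6-2 (mean 50.4) and Hopx (4.90-fold its wild-type mean), before Pou3f3 (30.1), Lhx2 (27.8) and Pbx2 (17.0). Between the libraries of that genotype Nkx6-2 (36.8 and 64.0) and Hopx (37.2 and 62.9) overlapped, so their order relative to each other is within the spread. Dlx5, Dlx6, Emx1, Lhx9 and Six2 stood below 1 CPM in every library. Of these, Dlx6 had 0, 19, 0 and 4 counts and Lhx9 9, 0, 0 and 0 counts in wild-type replicates 1 and 2 and Npas3-/- replicates 1 and 2, and neither was tested.

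**Figure D3:**
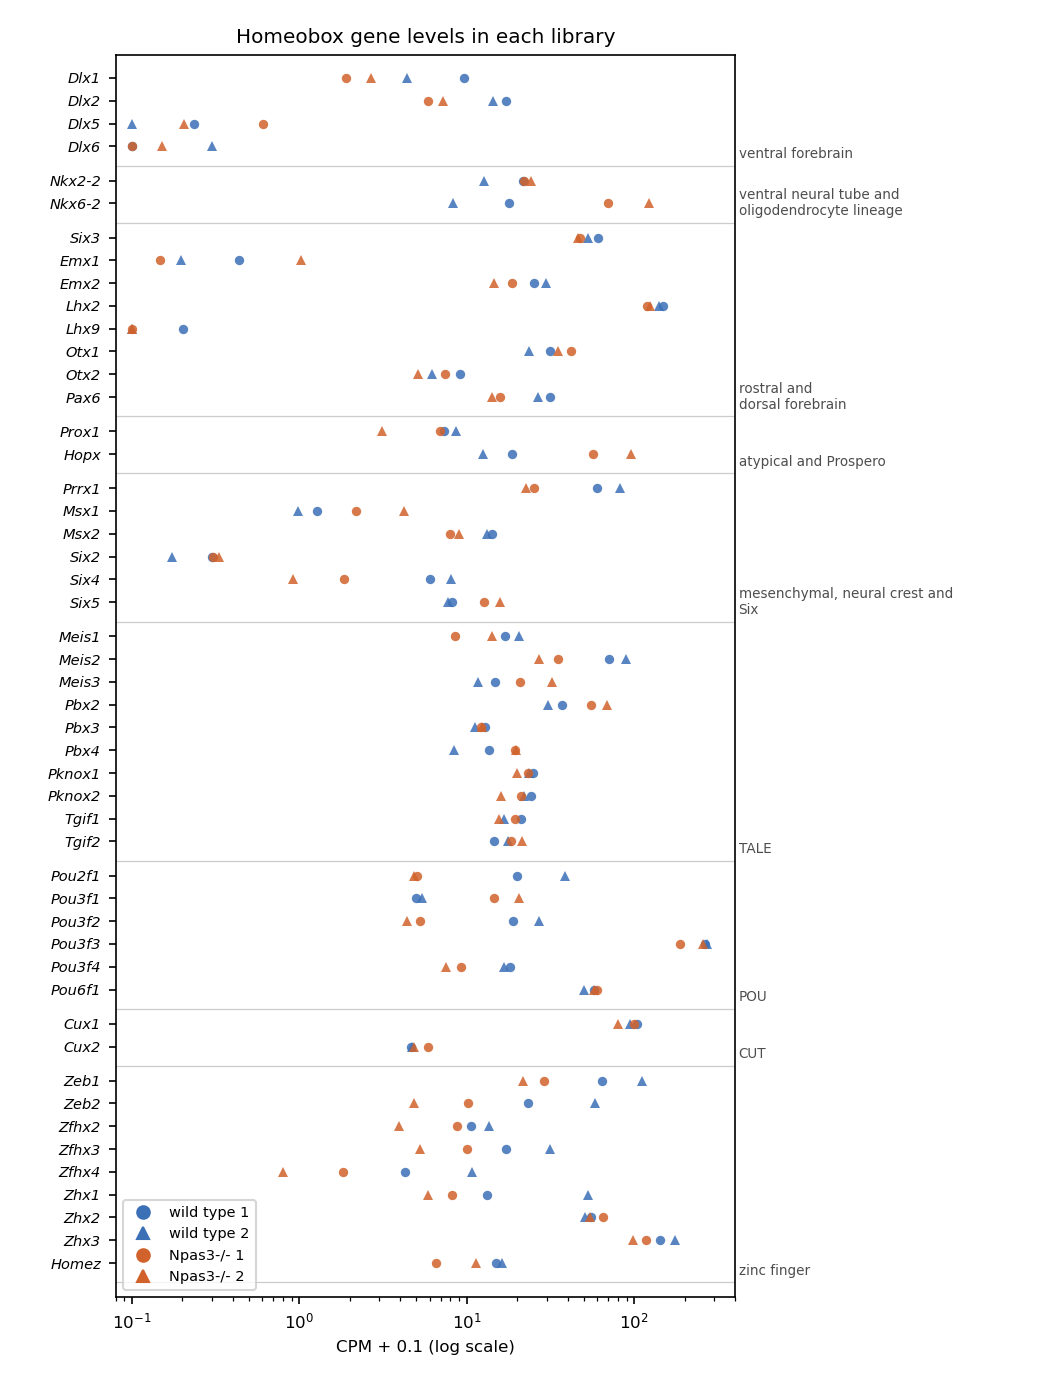
CPM plus 0.1 of each homeobox gene (x axis, log scale) in each library, wild type in blue and Npas3-/- in orange, circles for replicate 1 and triangles for replicate 2, grouped by role. Orange lies to the right of blue for Nkx6-2 (70.1 and 122 against 17.8 and 8.23 CPM) and Hopx, and to the left for Dlx2, Pou3f2 and most zinc finger genes.

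Among the ventral forebrain genes, Dlx2 fell and its neighbour Dlx1 was not past the threshold. Both act in progenitors of inhibitory neurons. Dlx2 (chromosome 2, 71543408 to 71546754, minus strand) was at 17.1 and 14.2 CPM in wild type and at 5.75 and 7.09 CPM in Npas3-/-, or 41.0% of wild type. All libraries of one genotype lay apart from the other, and the log2 fold change was -1.29 (SE 0.30, edgeR adjusted p = 0.030). It grew to -1.99 (SE 0.23, edgeR adjusted p = 0.0246) after the correction. Without wild-type replicate 1 the edgeR adjusted p was 0.0543 and without Npas3-/- replicate 1 it was 0.123, while the corrected call held without either wild-type library (edgeR adjusted p = 0.0225 and 0.0349). Dlx1, which lies beside it (71528113 to 71533981, plus strand), was at 9.49 and 4.29 CPM in wild type and at 1.79 and 2.60 CPM in Npas3-/-. The log2 fold change of Dlx1 was -1.65 (SE 0.51, edgeR adjusted p = 0.0561) and -1.84 (edgeR adjusted p = 0.0636) after the correction, and without wild-type replicate 2 it passed (-2.13, edgeR adjusted p = 0.0232). Dlx5, with 12 and 0 counts against 42 and 8, overlapped between genotypes. Of the 7 markers of inhibitory neurons, Slc32a1 and Sst had 0 counts in every library and Lhx6 33, 0, 0 and 4. Their summed level was 7.31 and 8.35 CPM in wild type and 4.08 and 5.03 CPM in Npas3-/-, and Gad2, the highest of them in wild type, was at 3.98 ± 0.309 and 0.409 ± 0.0831 CPM (SD, n = 2; log2 fold change -3.28, edgeR adjusted p = 0.0134; corrected -1.33, edgeR adjusted p = 0.117). Calb2 went the other way, from 0.462 and 0.395 to 2.34 and 2.58 CPM (log2 fold change 2.52, edgeR adjusted p = 0.0198; corrected 1.90, edgeR adjusted p = 0.0539). The part of such cells in the Dlx values was not tested, and in cultures measured in bulk fewer cells of a type and less RNA per cell cannot be told apart.

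By edgeR Nkx6-2 rose the most of all members, while Hopx did after the correction. Nkx6-2 acts in ventral domains of the neural tube and in maturing oligodendrocytes. Nkx6-2 (chromosome 7, 139579376 to 139582797, minus strand) was at 17.8 and 8.23 CPM in wild type and at 70.1 and 122 CPM in Npas3-/-. The higher wild-type library was thus far below the lower Npas3-/- library, and the mean was 7.38-fold higher. The log2 fold change was 2.88 (SE 0.48, edgeR adjusted p = 0.0165) and 1.96 (SE 0.29, edgeR adjusted p = 0.0260) after the correction. The rise remained past the threshold without any 1 of the other 3 libraries and was 3.52 (edgeR adjusted p = 0.00572) without wild-type replicate 1. Nkx6-2 shares 246 of its exon bases (12.9%) with Inpp5a, a phosphatase gene on the opposite strand. Inpp5a was at 79.8 and 70.2 CPM in wild type and 118 and 122 CPM in Npas3-/- (log2 fold change 0.68, edgeR adjusted p = 0.0443; corrected 0.33, edgeR adjusted p = 0.188), and without known strand the reads of the shared bases cannot be told apart. Nkx2-2, which specifies ventral progenitors and oligodendrocytes, was at 21.7 and 12.6 CPM in wild type and at 21.8 and 24.1 CPM in Npas3-/-. For Nkx2-2 the log2 fold change was 0.42 (SE 0.33, edgeR adjusted p = 0.362), and -0.21 (edgeR adjusted p = 0.615) after the correction. Among 10 markers of the oligodendrocyte lineage, Mog was at 0 counts in every library, Sox10 at 0, 5, 0 and 8 and Gpr17 at 4, 0, 0 and 0. Their sum was 1381 and 1274 CPM in wild type and 1428 and 1743 CPM in Npas3-/-, mostly Olig1, which was at 1046 ± 45.5 and 1280 ± 229.6 CPM (SD, n = 2; edgeR adjusted p = 0.365).

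Hopx, a small protein with a homeodomain that does not bind DNA and a gene of outer radial glia and neural stem cells, rose in both tests. It lies on chromosome 5, 77086988 to 77115121, minus strand. The levels were 18.5 and 12.5 CPM in wild type and 56.3 and 95.4 CPM in Npas3-/-, with the means 4.90-fold apart. The log2 fold change was 2.29 (SE 0.36, edgeR adjusted p = 0.0152), and at a GC content of 46.4% it was larger after the correction, 2.90 (SE 0.32, edgeR adjusted p = 0.0246). The call held without either wild-type library in both tests. Hopx shares 27.2% of its exon bases with the antisense gene Hopxos. Of the 10 neural progenitor markers, a list that itself holds Hopx, Hopx rose, and Fabp7 and Top2a were among those that fell by edgeR. Fabp7, the most abundant in wild type, fell from 779.8 to 38.9 CPM on average (log2 fold change -4.32, edgeR adjusted p = 0.0130; corrected -2.96, edgeR adjusted p = 0.0246). Nes, the most abundant over all 4 libraries, was at 535 and 278 CPM in wild type and 528 and 535 CPM in Npas3-/- (edgeR adjusted p = 0.409). Prox1, a Prospero class gene of neuronal and glial progenitors, was at 7.20 and 8.55 CPM in wild type and 6.82 and 3.01 CPM in Npas3-/-, with log2 fold changes of -0.68 (edgeR adjusted p = 0.30) and 1.09 (edgeR adjusted p = 0.0943) before and after the correction.

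Of the 7 tested rostral and dorsal forebrain genes, Pax6 fell by edgeR and Lhx2 after the correction, and the other 5 passed neither test. Of all genes 21.5% fell by edgeR and 3.08% after the correction. Lhx2, a LIM class gene needed for cortical identity, was at 149 and 139.9 CPM in wild type and at 119.7 and 125 CPM in Npas3-/-. The genotypes did not overlap, but the log2 fold change of -0.24 (SE 0.18, edgeR adjusted p = 0.342) was not past the threshold, whereas after the correction, at 58.5% GC, it was -0.87 (SE 0.16, edgeR adjusted p = 0.0345). That corrected call was lost without wild-type replicate 2 (edgeR adjusted p = 0.0710). Pax6, the paired-type gene of dorsal progenitors and the eye, fell by edgeR, from 31.2 and 26.4 to 15.8 and 14.0 CPM. Its log2 fold change was -0.95 (SE 0.25, edgeR adjusted p = 0.0383) and -0.39 (edgeR adjusted p = 0.261) after the correction, and leaving out any 1 library ended the call (edgeR adjusted p from 0.0663 to 0.212). Emx2, which patterns the caudal and medial cortex, was at 25.3 and 29.6 CPM against 18.6 and 14.4 CPM. The groups did not overlap, at a log2 fold change of -0.73 (SE 0.26, edgeR adjusted p = 0.0807), and of -0.90 (edgeR adjusted p = 0.0689) when corrected. Six3, a gene of the rostral forebrain, was at 60.7 and 52.8 CPM in wild type and 47.4 and 45.8 CPM in Npas3-/- (log2 fold change -0.28, SE 0.20, edgeR adjusted p = 0.309; corrected -0.45, edgeR adjusted p = 0.116). Otx1, a gene of the dorsal forebrain and deep cortical layers, was at 31.3 and 23.6 CPM against 41.8 and 34.9 CPM (log2 fold change 0.48, SE 0.25, edgeR adjusted p = 0.187; corrected 0.049, edgeR adjusted p = 0.899). Otx2, at 5.01 to 9.04 CPM, and Emx1, at 4 to 71 counts, overlapped between genotypes.

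The 4 Pou3 genes, brain POU factors expressed in neural progenitors and migrating neurons, differed in direction. Pou3f1 rose and Pou3f4 fell in both tests, Pou3f2 fell by edgeR alone, and Pou3f3, the most abundant member in CPM, was not past the threshold. Pou3f1 was at 4.87 and 5.33 CPM in wild type and at 14.5 and 20.3 CPM in Npas3-/-. Its log2 fold change was 1.77 (SE 0.31, edgeR adjusted p = 0.0179) and 1.25 (SE 0.26, edgeR adjusted p = 0.0435) after the correction, but 1.15 (edgeR adjusted p = 0.0545) where the trend was fitted at 1 CPM or more. Pou3f4 was at 18.0 and 16.5 CPM in wild type and at 9.16 and 7.47 CPM in Npas3-/-, with a log2 fold change of -1.05 (SE 0.28, edgeR adjusted p = 0.0395) and of -1.17 (SE 0.23, edgeR adjusted p = 0.0409) when corrected. Calls near the threshold were lost on leaving out a library: for Pou3f4 by edgeR without any 1 (edgeR adjusted p from 0.0734 to 0.211), and for both Pou3f1 and Pou3f4 after the correction (0.0593 to 0.222).
Pou3f2 went from 18.9 and 26.8 CPM to 5.17 and 4.32 CPM, 20.8% of wild type. At 44.4% GC its log2 fold change was -2.27 (SE 0.32, edgeR adjusted p = 0.0134) by edgeR and -0.41 (SE 0.21, edgeR adjusted p = 0.254) after the correction. Pou3f3 was at 264 and 271 CPM in wild type and at 187 and 259 CPM in Npas3-/-, where only replicate 1 lay well below wild type (log2 fold change -0.26, SE 0.23, edgeR adjusted p = 0.408; corrected 0.35, edgeR adjusted p = 0.473). Pou2f1, the widely expressed octamer factor Oct-1, had the largest fall of the POU genes by edgeR, from 20 and 38.5 to 4.96 and 4.75 CPM. Its log2 fold change of -2.59 (SE 0.39, edgeR adjusted p = 0.0145) became -0.16 (SE 0.27, edgeR adjusted p = 0.738) when corrected, at 43.7% GC and 13050 bases, and 18.1% of its exon bases are shared with Cd247 on the other strand. Pou6f1 was at 57.5 and 50.1 CPM against 59.7 and 57.5 CPM and overlapped between genotypes (log2 fold change 0.12, SE 0.20, edgeR adjusted p = 0.655; corrected -0.05, edgeR adjusted p = 0.856).

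**Figure D4:**
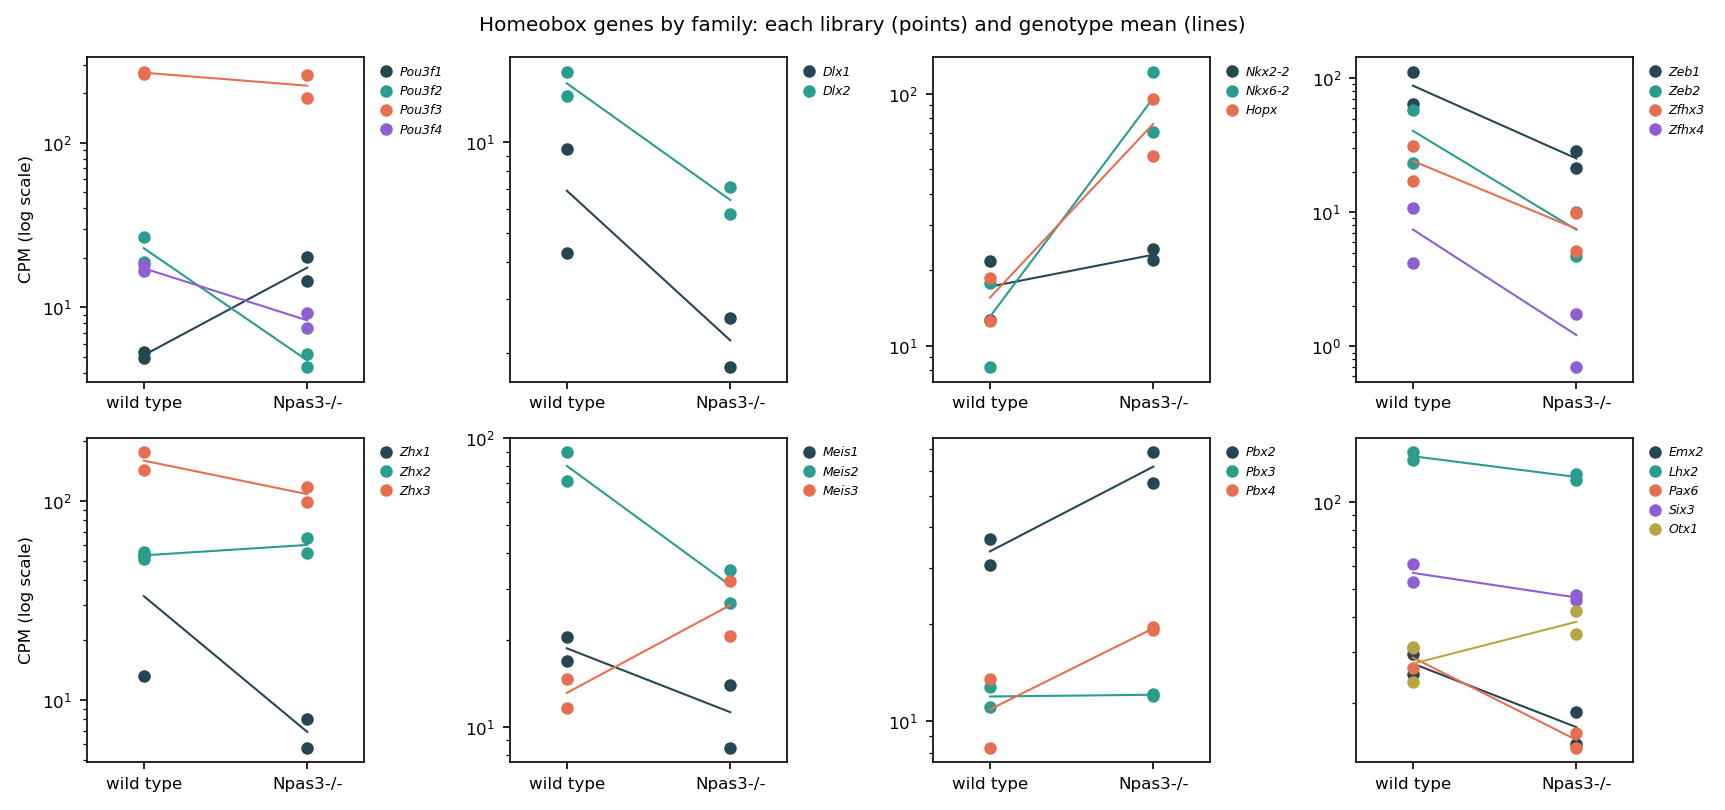
CPM (y axis, log scale) of homeobox genes in wild type and Npas3-/-, by family, with a point for each of the 2 libraries per genotype and a line between genotype means. Pou3f1 climbs while Pou3f2 and Pou3f4 descend and Pou3f3 has means of 268 and 223 CPM, and Nkx6-2 and Hopx climb from below 20 CPM to means of 96.1 and 75.8 CPM.

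Of 9 tested zinc finger homeobox genes 4 fell by edgeR, where 21.5% of all genes fell. None passed after the correction, where 5.71% of all genes rose and 3.08% fell. In 8 of the 9 both Npas3-/- libraries lay below both wild-type ones, as in 40.1% of all genes. Their median transcript is 9124 bases long with 46.1% GC. Zeb1, a repressor known from epithelial-mesenchymal transition, was at 64.4 and 112 CPM in wild type and at 28.9 and 21.6 CPM in Npas3-/-. This was a log2 fold change of -1.80 (SE 0.34, edgeR adjusted p = 0.0197) and -0.30 (SE 0.22, edgeR adjusted p = 0.406) after the correction. Zeb2, its paralog, went from 23.2 and 58.0 CPM to 10.1 and 4.73 CPM. Libraries of each genotype were more than 2-fold apart, and the log2 fold change of -2.45 (SE 0.59, edgeR adjusted p = 0.0317) turned to 0.30 (SE 0.23, edgeR adjusted p = 0.432) when corrected. Without wild-type replicate 2 it was -1.66 (edgeR adjusted p = 0.0669). Zfhx3, a large factor of neuronal differentiation and circadian timing, was at 17.0 and 31.4 CPM against 9.90 and 5.17 CPM. At 53.0% GC and 17152 bases its log2 fold change was -1.68 (SE 0.47, edgeR adjusted p = 0.0443) by edgeR and -1.17 (SE 0.29, edgeR adjusted p = 0.0621) corrected, the latter past the threshold without wild-type replicate 1 (edgeR adjusted p = 0.0386). Zfhx4 was at 4.19 and 10.7 CPM against 1.73 and 0.701 CPM (log2 fold change -2.61, SE 0.68, edgeR adjusted p = 0.0385; corrected -0.64, edgeR adjusted p = 0.357). The edgeR calls of Zeb1, Zfhx3 and Zfhx4 were lost without Npas3-/- replicate 1 (edgeR adjusted p = 0.0502, 0.0557 and 0.0521), and those of Zfhx3 and Zfhx4 also without wild-type replicate 2 (0.127 and 0.103).
The ZHX genes encode nuclear repressors with several homeodomains. Zhx1 had the largest ratio between its wild-type libraries of any member at 20 CPM or more, 13.1 and 53.2 CPM, against 8.04 and 5.74 CPM in Npas3-/- (log2 fold change -2.27, SE 0.68, edgeR adjusted p = 0.0521; corrected 0.034, edgeR adjusted p = 0.964). Without wild-type replicate 1 it passed (-2.97, edgeR adjusted p = 0.00440). Zhx2 was at 55.5 and 50.8 CPM against 65.3 and 54.6 CPM and overlapped (log2 fold change 0.17, SE 0.21, edgeR adjusted p = 0.538; corrected 0.19, edgeR adjusted p = 0.477). Zhx3, at 143 and 175 CPM, was lower in both Npas3-/- libraries, at 117 and 98.8 CPM (log2 fold change -0.56, SE 0.21, edgeR adjusted p = 0.0928; corrected 0.49, edgeR adjusted p = 0.109). Zfhx2 and Homez, at 3.86 to 16.2 CPM, were not past the threshold in either test.

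Of the 10 TALE genes 1 rose and 1 fell by edgeR, where 11.6% and 21.5% of all genes did. None passed after the correction, where 5.71% of all genes rose and 3.08% fell. Pbx2, a partner of Hox and Meis proteins, rose from 36.8 and 30.6 to 55.1 and 68.4 CPM. Its log2 fold change was 0.87 (SE 0.23, edgeR adjusted p = 0.0398) and 0.42 (SE 0.17, edgeR adjusted p = 0.153) after the correction, and leaving out any 1 library ended the call (edgeR adjusted p from 0.0573 to 0.234). Meis2, a gene of ventral forebrain progenitors and their neurons, fell from 71.1 and 89.4 to 34.9 and 26.9 CPM. Its log2 fold change was -1.38 (SE 0.24, edgeR adjusted p = 0.0180), against -0.51 (SE 0.19, edgeR adjusted p = 0.130) when corrected. Meis3 was at 14.6 and 11.6 CPM in wild type and 20.7 and 32.1 CPM in Npas3-/- (log2 fold change 1.01, SE 0.32, edgeR adjusted p = 0.0591; corrected 0.11, edgeR adjusted p = 0.772). Meis1 was at 16.9 and 20.5 CPM against 8.46 and 14.0 CPM, with values of opposite sign in the tests, -0.73 (edgeR adjusted p = 0.147) and 1.71 (edgeR adjusted p = 0.0754), neither past the threshold. Pknox1 was at 24.8 and 23.3 CPM against 23.1 and 19.9 CPM (log2 fold change -0.16, SE 0.24, edgeR adjusted p = 0.627; corrected 0.25, edgeR adjusted p = 0.414). Pknox2 was at 24.1 and 21.8 CPM against 21.0 and 16 CPM (log2 fold change -0.31, SE 0.26, edgeR adjusted p = 0.388; corrected -0.44, edgeR adjusted p = 0.235). Both are Meis relatives that pair with Pbx. Pbx3, Pbx4, Tgif1 and Tgif2 lay between 8.29 and 21.2 CPM and did not pass, and 56.7% of the exon bases of Tgif2 are shared with 5430405H02Rik on the other strand. The CUT genes of upper cortical layers did not pass either: Cux1 was at 104 and 94.8 CPM against 99.1 and 79.6 CPM (log2 fold change -0.15, SE 0.21, edgeR adjusted p = 0.595; corrected 0.77, edgeR adjusted p = 0.0777), and Cux2 at 4.58 to 5.75 CPM.

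Among genes of mesenchyme, neural crest and the sine oculis family, Prrx1 and Six4 fell by edgeR and none passed after the correction. Of all genes 21.5% fell by edgeR, and 5.71% rose and 3.08% fell after the correction. Prrx1, a paired-related gene of mesenchyme and of some neural progenitors, went from 59.8 and 81.8 CPM in wild type to 25.3 and 22.6 CPM in Npas3-/-. The log2 fold change was -1.56 (SE 0.25, edgeR adjusted p = 0.0153), and at 43.6% GC it turned to 0.55 (SE 0.19, edgeR adjusted p = 0.113) when corrected. Without Npas3-/- replicate 1 the edgeR adjusted p was 0.0514. Six4, a partner of Eya proteins, went from 5.91 and 7.93 CPM to 1.76 and 0.818 CPM (log2 fold change -2.42, SE 0.51, edgeR adjusted p = 0.0244; corrected -0.59, SE 0.36, edgeR adjusted p = 0.321), and was -3.08 (edgeR adjusted p = 0.0442) without Npas3-/- replicate 1. Msx1, Msx2, Six2 and Six5, at 0.0748 to 15.7 CPM, did not pass. Msx1 and Six5 were higher in both Npas3-/- libraries and Msx2, at 14.0 and 13.2 against 7.83 and 8.86 CPM, was lower. Of 11 markers of meningeal, fibroblast and mural cells 2 fell by edgeR (Dcn and Rgs5), and their sum was 1705 and 647 CPM in wild type and 1699 and 1812 CPM in Npas3-/-. That sum follows Acta2, at 1243 and 270.2 CPM in wild type and 1334 and 1359 CPM in Npas3-/- (edgeR adjusted p = 0.369), and Lum and Kcnj8 were too low to test. Its part in the values of Prrx1, Msx1 and Msx2 was not tested.

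Outside the 49 genes, 167 other homeobox genes were in the table and 67 were tested, of which 3 rose and 11 fell by edgeR (median log2 fold change -0.33), where 11.6% of all genes rose and 21.5% fell. After the correction 3 rose and 3 fell, where 5.71% and 3.08% of all genes did. In both tests 2 rose and 3 fell, where 462 and 541 of all 18838 genes did. Prrx2, the paralog of Prrx1, rose from 13.4 and 8.89 to 42.5 and 61.2 CPM (log2 fold change 2.22, SE 0.33, edgeR adjusted p = 0.0140; corrected 1.25, edgeR adjusted p = 0.0260). The paralogs thus had opposite signs by edgeR, though their difference was not tested. The ceramide synthase Cers6, which carries a homeobox-like domain, and Mkx, a TALE gene of tendon, fell by edgeR (log2 fold changes -2.52 and -2.62, edgeR adjusted p = 0.0130 and 0.0143) and not when corrected (-0.59 and -0.97, edgeR adjusted p = 0.0836 and 0.241). The other homeobox genes called in both tests were named after their values were seen: Cers5 rose, and Gsx1, Hmbox1 and Tshz1 fell. Gsx1, a ventral forebrain gene that acts ahead of Dlx genes, had 380 and 528 wild-type counts, and 69 and 147 in the Npas3-/- libraries (log2 fold change -1.86, edgeR adjusted p = 0.0466; corrected -2.87, edgeR adjusted p = 0.0301). Cers2, the most abundant of the list, was at 158 and 155 CPM in wild type and 218 and 165 CPM in Npas3-/- (log2 fold change 0.29, edgeR adjusted p = 0.334).

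Of 28 cofactors of homeodomain proteins, all tested, 4 rose and 9 fell by edgeR, at a median log2 fold change of -0.005, beside the same 11.6% and 21.5% of all genes. After the correction 1 rose and 1 fell (Ssbp2 and Ctbp2), beside 5.71% and 3.08% of all genes. Eya1, a transcriptional partner of Six4 and its relatives, fell from 5.28 and 7.00 to 0.0845 and 0.403 CPM (log2 fold change -4.66, SE 0.80, edgeR adjusted p = 0.0171; corrected -3.33, edgeR adjusted p = 0.0525). Hipk1, a kinase of homeodomain proteins, fell from 128 and 178 to 39.6 and 25.4 CPM (log2 fold change -2.23, SE 0.31, edgeR adjusted p = 0.0134; corrected -0.68, edgeR adjusted p = 0.0603). The corepressors Dach1 and Tle4 fell by edgeR too (log2 fold changes -3.0 and -1.62, edgeR adjusted p = 0.0152 and 0.0159; corrected edgeR adjusted p = 0.0897 and 0.101). Pbxip1, which binds Pbx proteins and is the most abundant of the list, was at 663 and 693 CPM in wild type and 1081 and 1044 CPM in Npas3-/- (log2 fold change 0.65, edgeR adjusted p = 0.0566).

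Of the noncoding RNAs that lie beside homeobox genes, 10 were tested, of which 1 rose and 1 fell by edgeR (11.6% and 21.5% of all genes). Pantr1, which starts next to Pou3f3, rose from 20.6 and 22.3 to 36.9 and 40.1 CPM (log2 fold change 0.84, SE 0.22, edgeR adjusted p = 0.0375; corrected 1.97, edgeR adjusted p = 0.0246). Pou3f3 itself was not past the threshold, and the difference between these neighbours was not tested. Six3os1, on the strand opposite Six3, fell from 83.0 and 81.5 to 50.9 and 40.2 CPM (log2 fold change -0.85, SE 0.21, edgeR adjusted p = 0.0346; corrected -0.54, edgeR adjusted p = 0.0796). Zeb2os, which shares 653 exon bases with Zeb2, was at 1.10 and 1.60 CPM in wild type and 3.14 and 4.27 CPM in Npas3-/- (log2 fold change 1.45, edgeR adjusted p = 0.0527; corrected 2.06, edgeR adjusted p = 0.0416). In CPM the level of Zeb2os stood higher in Npas3-/- where that of Zeb2 stood lower. After the correction Zeb2 had the same sign as Zeb2os, at 0.30 (edgeR adjusted p = 0.432). Without known strand the reads of the shared bases cannot be told apart, and the difference between the 2 genes was not tested. Pax6os1 had 5 to 20 counts per library and did not pass.

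Of 23 tested regional factors without a homeobox, 1 rose and 5 fell by edgeR (11.6% and 21.5% of all genes). In both tests 1 rose and 2 fell, where 462 and 541 of all 18838 genes did. Gli3, a transducer of Sonic hedgehog signals that favours dorsal identity, fell from 77.7 and 84.9 to 22.3 and 13.6 CPM (log2 fold change -2.18, SE 0.30, edgeR adjusted p = 0.0134; corrected -1.09, edgeR adjusted p = 0.0282). Dmrta2, a gene of the dorsal and medial cortex, rose from 39.1 and 26.6 to 76 and 137 CPM (log2 fold change 1.69, SE 0.36, edgeR adjusted p = 0.0255; corrected 1.07, edgeR adjusted p = 0.0422).

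The label astrocyte was checked against marker genes. The 10 astrocyte markers summed to 3899 and 4944 CPM in wild type and 6922 and 7126 CPM in Npas3-/-, but by edgeR 3 of them rose and 3 fell. Glul, glutamine synthetase and the highest over all 4 libraries, rose from 931 ± 158 to 2147 ± 143 CPM (SD, n = 2), and Gfap and Aldoc rose too. The water channel Aqp4 (mean 311 to 19.3 CPM, edgeR adjusted p = 0.0156; corrected 0.0385), the gap junction gene Gja1 (200.2 to 33.4 CPM, edgeR adjusted p = 0.0130; corrected 0.0246) and the glutamate transporter Slc1a2 (183 to 32.7 CPM, edgeR adjusted p = 0.0184; corrected 0.415) fell. Slc1a3, the highest in wild type, was at 1145 and 667 CPM on average (edgeR adjusted p = 0.0563). S100b, also on the astrocyte list, was low throughout, at 0.145 to 0.792 CPM. Its levels overlapped between genotypes (edgeR adjusted p = 0.864, corrected 0.963). Neuronal markers summed to 307 and 163 CPM in wild type and 201 and 200.2 CPM in Npas3-/-, mostly Stmn2. Among them Map2 fell from 40.7 to 3.12 CPM on average (edgeR adjusted p = 0.0130; corrected 0.0246) and Syt1 from 4.30 to 0.788 CPM (edgeR adjusted p = 0.0220; corrected 0.177), while Slc17a6 was at 0 counts in every library and Rbfox3 and Snap25 at 0 in both Npas3-/- libraries. Of the neuronal markers Tubb3 went the other way, from 45.9 and 21.9 to 65.2 and 79.6 CPM (edgeR adjusted p = 0.0767, corrected 0.531). Slc17a7 was also higher in both Npas3-/- libraries, at 2.68 and 3.04 against 1.16 and 2.30 CPM (edgeR adjusted p = 0.290, corrected 0.947). The 7 markers of choroid plexus and ependymal cells summed to 350.1 and 248 CPM in wild type and 485 and 615 CPM in Npas3-/-, mostly Foxj1, a gene of motile ciliated cells, with Ttr at 12, 0, 0 and 0 counts and Tmem212 at 0. Markers of microglia (2.19 to 4.91 CPM in sum, Tmem119 highest) and of endothelial cells (11.9 to 17.0 CPM, Flt1 highest) were low in all libraries. The part of these cells in the homeobox values was not tested.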

How the data were processed

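RNA of cultured astrocytes was sequenced in 4 libraries. The authors deposited 1 table of raw counts per gene, made with Trimmomatic 0.3.8, HISAT2 2.1.0, featureCounts and mm10, per the submitters' processing notes. For annotation release, strand setting and shared reads, nothing is given in the sources used here, so counts of overlapping genes are uncertain. Groups came from the genotype labels. Of 53379 identifiers 53274 matched GENCODE for mm10 without their version.

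Genes passing filterByExpr (minimum count 10) were tested with edgeR 4.0.16 (R 4.3.3), quasi-likelihood, TMM, no covariate, 2 residual degrees of freedom, and Benjamini-Hochberg adjustment at 0.05. CPM use TMM-scaled library sizes, and the SE is the log2 fold change over the square root of F. The correction fitted, per library, splines (6 degrees of freedom) of log2 CPM deviations (pseudocount 2) on GC content and log2 length of the longest protein-coding transcript, entered as offsets. Scripts were tested on simulated data. Alternatives included DESeq2 1.42.0 and limma-voom (limma 3.58.1).

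Members past the threshold in either test or at 20 CPM or more were given in full, others by range. From each further list the 4 smallest p-values and the most abundant gene were named, and from marker lists the most abundant gene and markers near 0. Genes named to spell out a count of 5 or fewer were chosen after their values were seen. Members and lists were chosen with earlier results of these data known. A level of 3 counts is 0.0320 to 0.0390 CPM. Single-gene values of some genes that this rule names are not reported here.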

Additional observations from a re-analysis of the deposited data

How the results depend on the processing

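The counts of 4 homeobox genes higher and 12 lower were the same with DESeq2 size factors and with limma-voom. With no filter on low counts there were 3 higher and 7 lower. DESeq2 called 8 and 15. The correction for GC content and length left 3 higher and 3 lower, and 2 and 3 with its trend fitted at 1 CPM or more, a setting added after the data were seen. Leaving out 1 library gave 0 to 4 higher and 0 to 10 lower. With the correction it gave 3 and 3 without wild-type replicate 1, 2 and 2 without wild-type replicate 2, and 0 and 0 without either Npas3-/- library. Same-numbered libraries did not deviate together (correlation -0.156). The replicate block gave 3 higher and 6 lower, and 2 and 1 together with the correction. A block with the numbers crossed, added after the data were seen, gave 6 and 16. The correction turned the sign of 2 members called by edgeR, Prrx1 and Zeb2, and of 833 of all 6232 genes called. It also turned the sign of 13 members that passed neither test. The sign turned for Prrx1 with the correction (0.55), with its block (0.55), with the trend at 1 CPM or more (0.57), and without each library (0.66, 0.43, 0.66 and 0.39). Zeb2 turned likewise (0.30, 0.28, 0.33, 0.24, 0.35 and 0.49), except without Npas3-/- replicate 1. Pou2f1 was at 0.091 with the correction without Npas3-/- replicate 1, and Cux1 at 1.02 with it without wild-type replicate 1 (edgeR adjusted p = 0.0389). The cause was not tested. With 2 libraries per genotype a miss of the threshold does not show that levels were alike.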
